A study of Mus musculus with 6 samples.

Results

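Nuclear genes for subunits of the mitochondrial respiratory chain and of ATP synthase were followed across M1, I1 and BL185, mouse hepatocellular carcinoma (HCC) cells. The members were the genes whose annotated symbol is Ndufa, Ndufb, Ndufc, Ndufs or Ndufv with a number or ab1, or Sdha to Sdhd, or begins with Uqcr, Cox4i, Cox5, Cox6, Cox7, Cox8 or Atp5. This gave 82 of the 18193 genes measured, 34 of complex I, 4 of complex II, 8 of complex III, 19 of complex IV and 17 of complex V. Ndufa4 and its paralogue Ndufa4l2 were counted with complex IV, where Ndufa4 is now placed. The 7 symbols Ndufa11, Ndufa11b, Ndufb4b, Ndufb4c, Ndufs5-ps, Ndufs6 and Ndufs6b occurred only on probe sets that name several genes and were not used here. The members were spread over 19 chromosomes, with 9 of them on chromosome 7.

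M1 and I1 are subclone lines, each a subpopulation selected from BL185 for migration, and BL185 is the unselected parent. All 3 lines were cultured in DMEM with fetal bovine serum, total RNA was extracted with Trizol, and 2 Affymetrix arrays were hybridised per line. No subclone without the selection was analysed here, so selection and subcloning cannot be told apart. Nothing in the labels tells if a line's 2 arrays stem from independent cultures, so the p-values cover just the variation among arrays, possibly technical. The arrays measured bulk RNA, in which fewer cells of a kind and less RNA per cell cannot be told apart. As for the labelled cell type, Krt8 and Krt18, keratins of liver epithelium, read 14.78 to 15.23 on a log2 scale, and Hnf4a, a hepatocyte transcription factor, read 11.94 to 13.34. Alb, which encodes serum albumin, read only 7.53 to 8.43 and Afp, the fetal counterpart, 7.14 to 9.89, beside array medians of 7.87 to 8.11.

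Complexes I and II pass electrons from NADH and succinate to coenzyme Q, complex III passes them to cytochrome c, and complex IV, cytochrome c oxidase, hands them to oxygen. Complexes I, III and IV pump protons, and complex V, the ATP synthase, lets the protons return and makes ATP. The catalytic centre of several complexes includes proteins encoded by mitochondrial DNA, of which none was measured here. All subunits measured were nuclear genes, whose promoters often carry sites for the factors NRF1, GABP (NRF2) and YY1. Hepatocytes are rich in mitochondria, and liver tumours are known for variable use of respiration.

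Promoter sequence was at hand for 67 of the 82 members, in a RefSeq table of 250 bases before to 50 bases after each gene start on assembly GRCm38.p6. The NRF1 motif, GCGCA and GCGC with any base between them, was searched for on both strands. It stood in 15 of the 67 members (22.4%), against 5.19% of all 27025 genes in the table, a gene counting if any of its promoters matched. The GABP motif CCGGAAG was found in 17 members (25.4%), against 9.93% of all genes in the table. The YY1 motif AAGATGGC was found in 9 members (13.4%), against 3.19% of all genes in the table. At least 1 of the 3 motifs was present in 36 members (53.7%), against 16.4% of all genes in the table. A match describes these letters only and was not tested for binding in these cells. The genes in the table were not limited to those measured or of like signal. Whether the higher shares are particular to respiratory chain genes was therefore not tested. The windows below run from 130 bases before to 20 after the gene start and belong to members described later that lay on 1 side of BL185 on every selected-line array, Ndufb7, Uqcrh and Atp5e above it and Ndufa6, Cox7a2l and Atp5g2 below it. They are printed 5′ to 3′ on the gene's strand, with the matched motif in capitals.
Ndufb7, chr8:83566628-83566777, plus strand: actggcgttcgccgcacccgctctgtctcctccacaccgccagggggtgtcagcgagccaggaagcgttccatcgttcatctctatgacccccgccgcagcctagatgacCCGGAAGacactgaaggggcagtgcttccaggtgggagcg
Uqcrh, chr4:116075051-116075200, minus strand: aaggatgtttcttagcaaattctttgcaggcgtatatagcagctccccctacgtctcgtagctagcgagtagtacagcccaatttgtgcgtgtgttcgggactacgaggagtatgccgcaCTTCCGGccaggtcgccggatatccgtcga
Atp5e, chr2:174464082-174464231, minus strand: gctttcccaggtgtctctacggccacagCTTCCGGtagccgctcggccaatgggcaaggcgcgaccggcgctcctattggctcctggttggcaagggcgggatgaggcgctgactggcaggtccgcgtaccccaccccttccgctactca
Ndufa6, chr15:82354272-82354421, minus strand: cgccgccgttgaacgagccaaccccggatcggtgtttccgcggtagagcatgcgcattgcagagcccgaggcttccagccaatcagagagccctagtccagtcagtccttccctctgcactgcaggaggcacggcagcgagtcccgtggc
Cox7a2l, chr17:83514314-83514463, minus strand: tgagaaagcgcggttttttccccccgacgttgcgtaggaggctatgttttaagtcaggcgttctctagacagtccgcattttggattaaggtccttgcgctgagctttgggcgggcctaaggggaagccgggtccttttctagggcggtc
Atp5g2, chr15:102671028-102671177, minus strand: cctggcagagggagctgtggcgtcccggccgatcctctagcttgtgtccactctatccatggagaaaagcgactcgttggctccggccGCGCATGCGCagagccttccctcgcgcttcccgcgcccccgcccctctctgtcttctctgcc
The capitals are a GABP motif, read on either strand, in Ndufb7, Uqcrh and Atp5e, beginning at positions -20, -10 and -102 from the gene start. In Atp5g2 they are an NRF1 motif beginning at position -42. The printed windows of Ndufa6 and Cox7a2l hold none of the 3 motifs, while the whole promoter of Ndufa6 in the table holds 1 outside its printed window. The windows are a selection, since other members such as Uqcr11 and Ndufs8 also lay on 1 side of BL185 on every selected-line array. Motifs were not counted by direction of change, so the windows do not bear on it.

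The probe sets of most members were bright. By mean signal over the 6 arrays, 66 of the 82 stood at or above the 90th percentile of all genes, and 70 had a mean log2 value of at least 11. The exceptions were mostly tissue-restricted isoforms. The 11 members with a mean under 10 were Cox4i2, Cox6a2, Cox6b2, Cox7a1, Cox7b2, Cox7c, Cox8b, Ndufa4l2, Ndufb1, Ndufb4 and Ndufs5. The sizes of their differences are inexact, because a dim probe set lies near background. Signals of different probe sets depend on the probes, so levels were not compared between genes.

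The M1 arrays were less alike than those of the other lines. M1 replicate 1 had an SD over probe sets of 1.62, against 1.83 to 1.97 on the other 5 arrays. Of the 82 members, 73 were lower on M1 replicate 1 than on M1 replicate 2, with a median difference of -0.50, while genes of like signal had a median difference of -0.63. The median SD of a member between the arrays of a line was 0.36 in M1 and 0.09 in I1, against 0.08 in BL185. The control probe set for 18S ribosomal RNA read 12.50 and 10.68 in M1 and 11.27 and 11.51 in I1, against 10.11 and 10.14 in BL185. The log2 difference between the 3′ and 5′ probe sets of Actb, which widens as RNA breaks down, was 1.43 and 1.24 in M1 and 1.47 and 1.43 in I1, against 1.08 and 0.88 in BL185. Of 12 markers of hepatocytes and liver tumours, 5 had a mean above 10 in every line. Their median change was 0.43 in M1 and 0.38 in I1, and 0.25 and 0.36 relative to genes of like signal. In M1, 6 lay above both BL185 arrays and 2 below, where 26.2% and 25.7% of all genes did. In I1, 10 lay above and 1 below, where 42.6% and 33.5% of all genes did. By limma Fgb, a fibrinogen chain, was called lower in M1. The summed log2 level of the 12 markers was 123.1 to 128.0 in M1, overlapping the 122.5 to 123.3 of BL185. In I1 it was 125.3 to 126.1. The M1 median of these markers was 0.17 when M1 replicate 1 was left out. The leukocyte markers Cd68 and Cd53 read 7.37 to 8.35 in M1 and I1, against 9.58 to 10.74 in BL185, and the summed log2 level of the 6 leukocyte markers was 47.6 to 50.4 in M1 and 48.7 to 49.8 in I1, against 52.6 to 52.7 in BL185. By limma Cd68 was called lower in both lines and Cd53 in M1, these 2 genes carried the lower sum, and in I1 the other 4 leukocyte markers lay above both BL185 arrays. Of 10 fibroblast markers, 6 lay above both BL185 arrays in M1 and 8 in I1, where 26.2% and 42.6% of all genes did, and 0 below. Their medians were 0.33 and 0.34, but 0.12 and 0.17 relative to genes of like signal. Without M1 replicate 1 their M1 median was 0.12. Their summed level was 78.6 to 83.5 in M1 and 79.7 to 81.0 in I1, against 77.0 to 77.9 in BL185. Of the 10 fibroblast and 5 endothelial markers limma called 0, also at an unadjusted p under 0.05. The control readings, Cd68 and Cd53 thus differed between the lines, as did the hepatocyte markers between I1 and BL185. In M1 the summed level of the hepatocyte markers overlapped that of BL185. The fibroblast markers differed less once set beside genes of like signal. The part of all these in the results was not tested.

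As a group the members differed little from BL185 in M1 and were somewhat higher in I1. The median change over the 82 members was 0.01 log2 units in M1 minus BL185, beside 0.07 over all genes, and 0.18 in I1 minus BL185, beside 0.06 over all genes. The members' changes ran from -1.07 to 0.98 in M1 and from -0.54 to 1.09 in I1. By limma, a linear model over all 18193 genes with Benjamini-Hochberg adjustment and a threshold of 0.05, no member passed in either comparison. The background was small in both, with 0.879% of all genes called for M1 minus BL185 and 0.511% for I1 minus BL185. At an unadjusted p under 0.05 there were 9 members in M1 (6 higher and 3 lower), where 15.4% of all genes passed, and 17 in I1 (17 higher and 0 lower), where 11.6% of all genes passed. By direction, 3.92% of all genes passed as higher and 11.5% as lower in M1, and 4.18% as higher and 7.47% as lower in I1. The smallest adjusted p of a member was 0.130 in M1 and 0.122 in I1.

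Counting only members whose arrays in the line all lay on the same side of both BL185 arrays, 47 of the 82 were higher in I1 (57.3%), where 42.6% of all genes were, and 13 were lower (15.9%), where 33.5% of all genes were. In M1, 25 members were higher (30.5%), where 26.2% of all genes were, and 6 were lower (7.32%), where 25.7% of all genes were. In M1 the share that lay higher was close to that of all genes, and the share that lay lower was below it. Most members are bright, and other genes with a mean of at least 11 had other shares. Of these, 10.7% lay higher and 43.7% lower in M1, and 28.5% higher and 50.5% lower in I1. Both comparisons use the same BL185 arrays, so the counts are not independent of each other.

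The difference from other genes depended on the signal level. Among the 3446 other genes with a mean of at least 11, the median change was -0.38 in M1 and -0.14 in I1. For each member, the median change of the 500 other genes nearest to it in mean signal was therefore taken as a like-signal value. Relative to it, 63 of the 82 members were above and 19 below in M1, with a median of 0.20. In I1, 63 were likewise above and 19 below, with a median of 0.24. This is a description of the signal range the members occupy and carries no test. The brightest members, such as Atp5b, Atp5g3, Cox5a and Cox6a1, shared the same like-signal value, -0.15 in M1 and -0.04 in I1. The match in signal is looser for them.

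**Figure D1:**
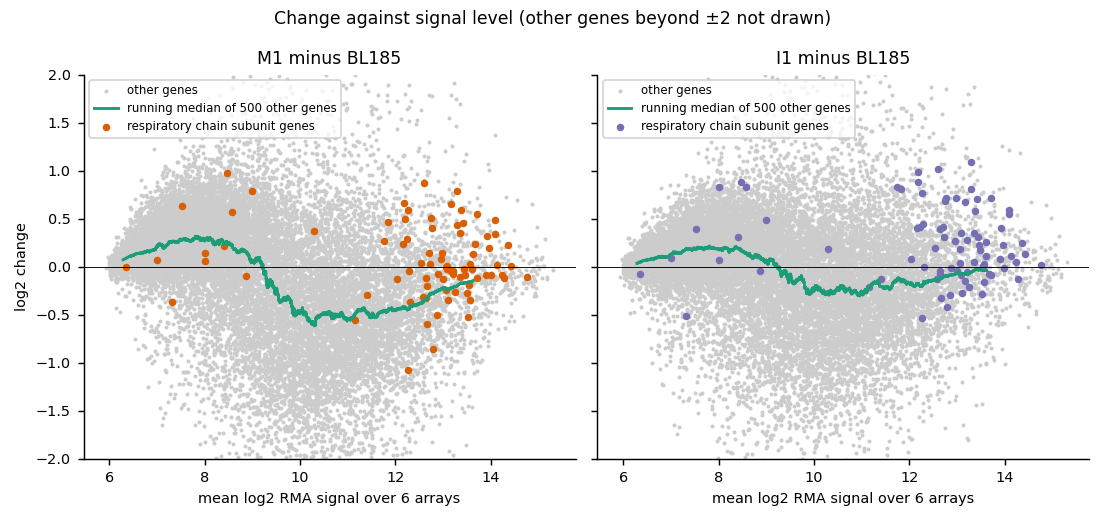
Each gene's change from BL185 (y axis, log2 units) is plotted against its mean log2 RMA signal over 6 arrays (x axis), for M1 (left) and I1 (right). Grey points are other genes, coloured points the 82 members, and the green line is the running median of 500 other genes. Most members lie at the bright end, where the green line is below 0, and 63 of 82 lie above their like-signal value in each panel.

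When M1 replicate 1, the array that stood apart, was left out, members passed the limma test. Then 20 members were higher and 4 lower in M1, where 11.7% of all genes were called higher and 12.3% lower, and the median change became 0.23. In I1, 33 members were higher and 3 lower, where 22.5% of all genes were called higher and 24.1% lower. The lone M1 array is then taken to vary as I1 and BL185 do. Leaving out M1 replicate 2 in its place gave the opposite balance in M1, with 12 members higher and 28 lower, where 32.4% of all genes were called higher and 38.4% lower, and a median of -0.24. The direction of the members as a group in M1 therefore differed between its 2 arrays. For I1, the counts were the same whichever M1 array was left out, and they became 0 when an I1 or BL185 array was left out.

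Normalizing the arrays further also brought members past the threshold. With cyclic loess, 9 members were higher and 2 lower in M1 by limma, where 4.66% of all genes were called higher and 5.41% lower, and 7 were higher and 0 lower in I1, where the shares were 4.20% and 4.28%. With quantile normalization, 6 were higher and 0 lower in M1 (3.48% and 2.98% of all genes) and 11 higher and 0 lower in I1 (3.34% and 2.05%).

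**Figure D2:**
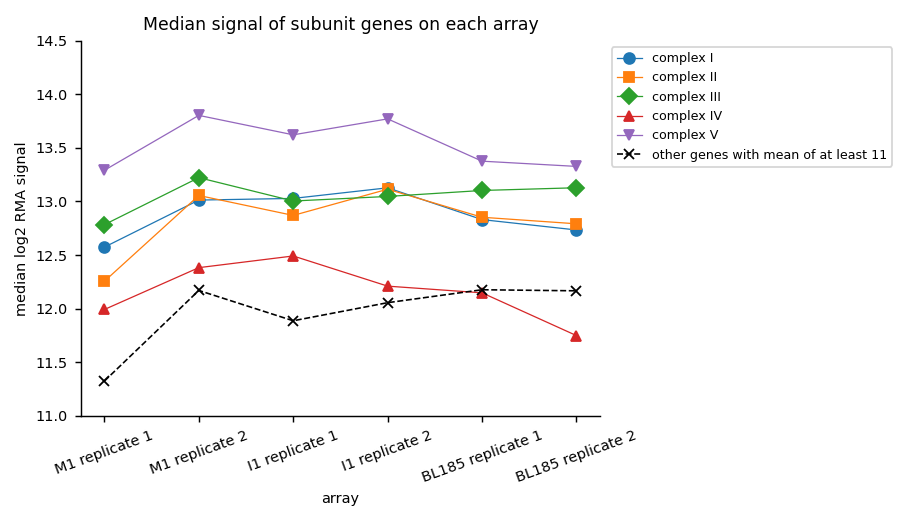
The median log2 RMA signal (y axis) of the members of each complex and of other genes with a mean of at least 11 (black crosses) is drawn for each of the 6 arrays (x axis, M1, I1 and BL185). Over all members the medians were 12.63 and 13.20 in M1 and 13.00 and 13.15 in I1, against 12.97 and 12.87 in BL185, and the M1 replicate 1 points are the lowest for complexes I, II, III and V.

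Complex I, the NADH dehydrogenase, had the widest spread. Its 34 members had a median change of -0.02 in M1 and 0.25 in I1, and 0.23 and 0.31 relative to genes of like signal. In M1, 8 of the 34 members lay above both BL185 arrays (23.5%, beside 26.2% of all genes) and 4 below (11.8%, beside 25.7%). In I1, 20 lay above (58.8%, beside 42.6% of all genes) and 6 below (17.6%, beside 33.5%). The highest was Ndufb7, an accessory subunit on the intermembrane face. Ndufb7 read 13.27 and 13.65 in M1 and 13.75 and 13.77 in I1, against 12.73 and 12.62 in BL185. All M1 and I1 arrays were above both BL185 arrays. The difference was 0.79 ± 0.20 (SE) in M1, a 1.73-fold higher signal with an adjusted p of 0.178 by limma, and 1.09 ± 0.20 in I1, 2.12-fold with an adjusted p of 0.122. A dimmer probe set of Ndufb7 gave 0.78 in M1 and 0.97 in I1.

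The lowest of complex I was Ndufa6, an accessory subunit of the matrix arm that binds the mitochondrial acyl carrier protein. Ndufa6 read 11.35 and 12.12 in M1 and 12.24 and 12.30 in I1, against 12.91 and 12.71 in BL185. Every M1 and I1 array was below both BL185 arrays. The difference was -1.07 ± 0.29 in M1, with an adjusted p of 0.201 by limma, and -0.54 ± 0.29 in I1, with an adjusted p of 0.588. Ndufa6 had -0.69 in M1 without M1 replicate 1. The array has 1 probe set for it, so no other probe set checks it. Ndufab1, the acyl carrier protein itself, differed by -0.08 in M1 and -0.06 in I1.

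Core subunits carry the electrons from NADH to coenzyme Q, and 6 of them were analysed here. The median over these 6 was -0.14 in M1 and 0.13 in I1, and all 6 lay above their like-signal value in both. Ndufs8, an iron-sulfur subunit near the coenzyme Q site, read 13.38 and 13.75 in M1 and 13.52 and 13.60 in I1, against 13.05 and 12.91 in BL185. It was the only 1 of these 6 whose M1 arrays did not overlap those of BL185. Its difference was 0.59 ± 0.20 in M1 and 0.58 ± 0.20 in I1, with adjusted p-values of 0.279 and 0.365 by limma. Its other 5 probe sets gave differences of 0.20 to 0.57 in M1 and 0.19 to 0.58 in I1.

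Ndufv1, which binds NADH and flavin, read 12.59 and 13.23 in M1 and 13.02 and 13.18 in I1, against 12.84 and 12.83 in BL185. Its partner Ndufv2 read 12.61 and 13.32 in M1 and 13.18 and 13.44 in I1, against 13.02 and 12.90 in BL185. For both genes the I1 arrays lay above BL185 and the M1 arrays on either side of it, and 1 of the other Ndufv2 probe sets gave -0.17 in I1 where the one used gave 0.35. Ndufs1, the largest iron-sulfur subunit, read 10.71 and 11.79 in M1 and 11.22 and 11.60 in I1, against 11.46 and 11.63 in BL185. Ndufs3, a subunit of the arm between the flavin and the membrane, read 12.05 and 12.87 in M1 and 12.64 and 12.77 in I1, against 12.82 and 12.74 in BL185. Ndufs7, which holds the last iron-sulfur cluster before coenzyme Q, read 11.69 and 12.44 in M1 and 12.34 and 12.51 in I1, against 12.51 and 12.37 in BL185. The lines overlapped for these 3 subunits, with differences of -0.37 to -0.29 in M1 and -0.13 to -0.01 in I1. Without M1 replicate 1 their M1 values were 0.24, 0.08 and 0.00, and the median over the 6 core subunits was 0.30.

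Among the 28 accessory subunits of complex I, 17 lay above both BL185 arrays in I1 (60.7%, beside 42.6% of all genes) and 6 below (21.4%, beside 33.5%). Those with the smallest unadjusted p in I1 after Ndufb7 were Ndufa2 (0.80, adjusted p 0.204 by limma), Ndufv3 (0.72, 0.213), Ndufa3 (0.67, 0.234), Ndufa5 (0.80, 0.342) and Ndufb2 (0.71, 0.352). In M1 the same 5 genes differed by 0.44, 0.14, 0.65, 0.46 and 0.40. The 6 that lay below BL185 in I1 were Ndufa6, Ndufa7, Ndufa10, Ndufb5, Ndufb9 and Ndufs4. Besides Ndufa6 they differed by -0.30 to -0.13 in I1 and by -0.56 to -0.31 in M1. Accessory subunits of the same membrane arm thus lay on opposite sides of BL185, as with Ndufb7 and Ndufb5 (-0.50 in M1 and -0.30 in I1).

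**Figure D3:**
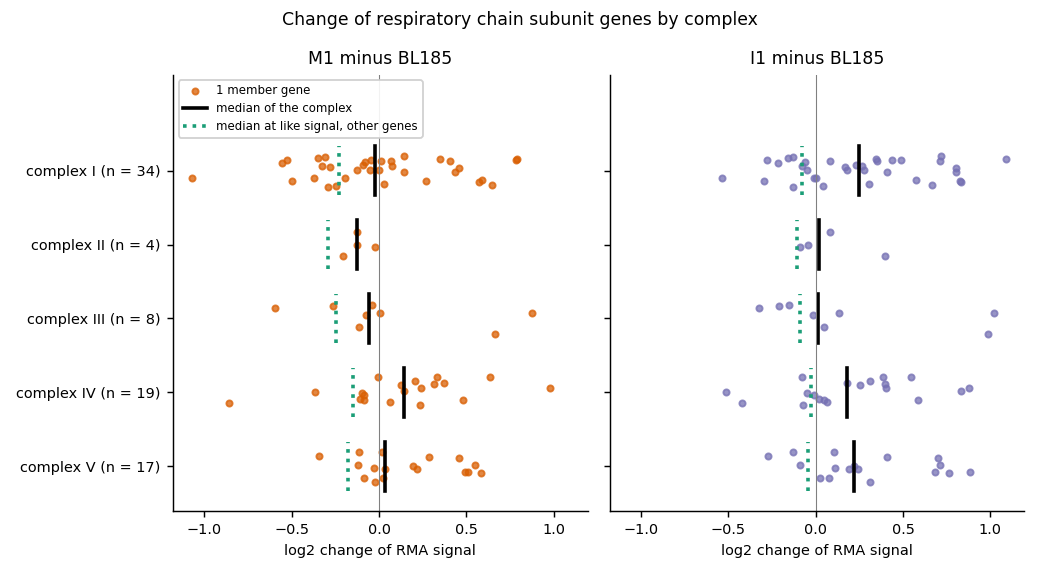
Log2 change of RMA signal (x axis) of each member gene is shown by complex (rows) for M1 minus BL185 (left) and I1 minus BL185 (right). Black bars are the medians of the complexes and dotted green bars the medians of other genes at like signal, which are lower than the black bars in all 5 complexes and both panels. The black bars run from -0.13 (complex II) to 0.14 (complex IV) in M1 and from 0.02 to 0.25 in I1.

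Complex II, succinate dehydrogenase, is also an enzyme of the citric acid cycle and has no subunit encoded by mitochondrial DNA. Its 4 members were close to BL185, with a median of -0.13 in M1 and 0.02 in I1. Sdha, the flavin subunit that oxidises succinate, read 11.87 and 12.89 in M1 and 12.85 and 13.12 in I1, against 12.62 and 12.56 in BL185. Its I1 difference of 0.40 ± 0.36 had an adjusted p of 0.719 by limma, and another bright probe set of Sdha gave the opposite sign, -0.27. Sdhb, the iron-sulfur subunit, read 12.64 and 13.22 in M1 and 12.92 and 13.11 in I1, against 13.08 and 13.03 in BL185. The membrane anchors were similar in this respect. Sdhc read 11.57 and 12.27 in M1 and 12.15 and 12.11 in I1, against 12.08 and 12.01 in BL185. Sdhd read 12.79 and 13.40 in M1 and 12.89 and 13.17 in I1, against 13.10 and 13.13 in BL185. The arrays of M1 lay on both sides of BL185 for all 4 genes, and of I1 for Sdhb and Sdhd. Without M1 replicate 1 the M1 median of the 4 was 0.25.

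Complex III, the cytochrome bc1 complex, held the member with the smallest adjusted p in M1. Uqcrh, the acidic hinge protein at the cytochrome c docking site, read 12.74 and 12.93 in M1 and 13.00 and 12.96 in I1, against 12.09 and 11.82 in BL185. The lowest reading in the selected lines was above the highest in BL185. The difference was 0.87 ± 0.19 in M1 (1.83-fold, adjusted p 0.130 by limma) and 1.02 ± 0.19 in I1 (2.03-fold, adjusted p 0.122). The other probe set of Uqcrh gave 0.72 in M1 and 0.81 in I1. Uqcr11, a small membrane subunit named here after its values were seen, read 12.14 and 12.45 in M1 and 12.71 and 12.53 in I1, against 11.79 and 11.47 in BL185. Its arrays did not overlap those of BL185, with differences of 0.67 in M1 (adjusted p 0.263 by limma) and 0.99 in I1 (adjusted p 0.170).

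The remaining subunits of complex III were nearer to the parent, as measured by the probe set used. Uqcrc2, a core protein of the matrix side, read 11.82 and 12.93 in M1 and 12.46 and 12.83 in I1, against 12.90 and 13.05 in BL185. Its difference was -0.60 ± 0.40 in M1 and -0.32 ± 0.40 in I1, with adjusted p-values of 0.450 and 0.765 by limma, and its other probe set gave -0.42 and 0.01. The M1 value of Uqcrc2 was -0.04 without M1 replicate 1. The other core protein, Uqcrc1, differed by -0.04 in M1 and -0.15 in I1, and Uqcrfs1, the Rieske iron-sulfur protein that takes electrons from coenzyme Q, by -0.26 and -0.21. Uqcrb, Uqcrq and Uqcr10, small subunits, differed by -0.11 to 0.01 in M1 and by -0.02 to 0.13 in I1. For Uqcr10 the probe sets disagreed. The 2 other probe sets of Uqcr10, with means of 11.3 and 10.9 where the one used had 12.9, gave -1.17 and -1.73 in M1 and -1.13 and -1.46 in I1, with adjusted p-values of 0.109 and 0.0900 in M1 and 0.122 and 0.128 in I1 by limma. The direction of Uqcr10 is thus not settled by the probe set used. Over the complex, the median was -0.06 in M1 and 0.02 in I1.

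**Figure D4:**
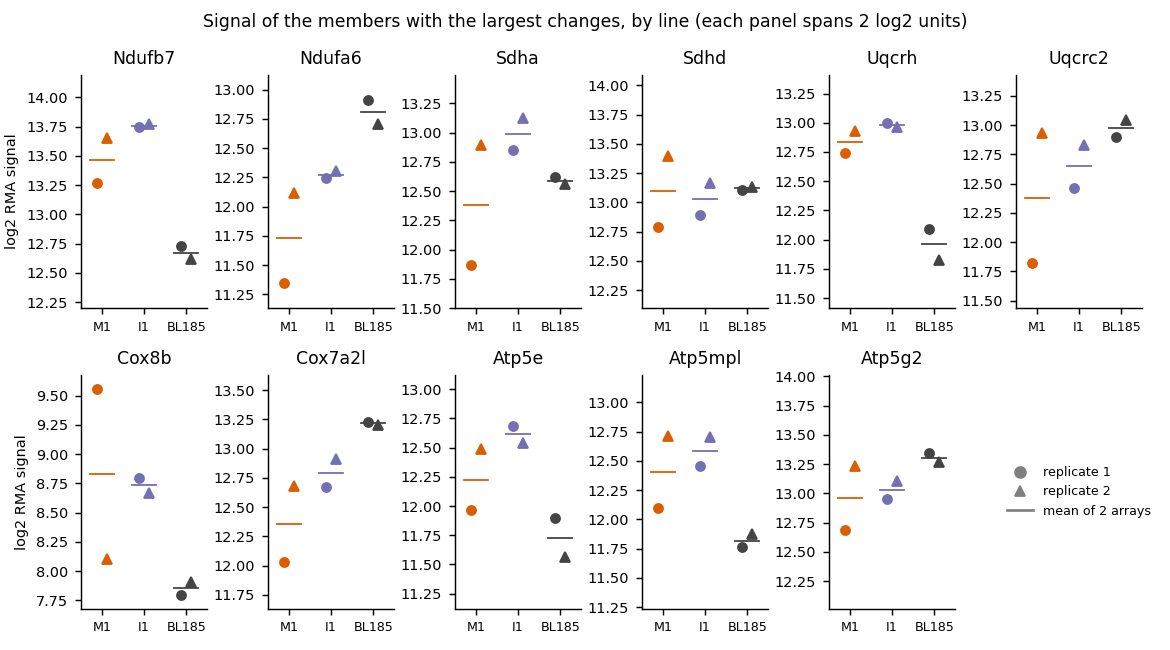
Log2 RMA signal (y axis, each panel spanning 2 units) of 11 members is shown on each array of M1, I1 and BL185 (x axis). Circles are replicate 1, triangles replicate 2 and lines their mean. Ndufb7, Uqcrh, Atp5e, Atp5mpl and Cox8b were higher on every M1 and I1 array than on BL185, Ndufa6, Cox7a2l and Atp5g2 lower on every one, and the M1 points lie farthest apart in most panels.

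Complex IV, cytochrome c oxidase, has several subunits made in a general form and in forms known from muscle, testis or lung. Over its 19 members the median was 0.14 in M1 and 0.18 in I1. Relative to genes of like signal it was 0.07 in M1, the smallest of the complexes, and 0.12 in I1. By that measure 12 members lay above and 7 below in M1, and 13 and 6 in I1. Among members with a higher line mean of at least 8, the largest difference downward was that of Cox7a2l. It is known to hold complexes III and IV together in supercomplexes. Cox7a2l read 12.03 and 12.68 in M1 and 12.67 and 12.91 in I1, against 13.23 and 13.20 in BL185. All M1 and I1 arrays were below BL185. The difference was -0.86 ± 0.27 in M1 (adjusted p 0.242 by limma) and -0.42 ± 0.27 in I1 (adjusted p 0.638). Cox7a2l had -0.54 in M1 without M1 replicate 1. Its other probe sets gave -0.86 and -1.10 in M1 and -0.46 and -0.63 in I1.

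Its relative Cox7a2, the general form of subunit VIIa, differed in the other direction. Cox7a2 read 14.02 and 14.40 in M1 and 14.27 and 14.36 in I1, against 13.83 and 13.63 in BL185, which gave 0.48 ± 0.21 in M1 (adjusted p 0.356 by limma) and 0.59 ± 0.21 in I1 (adjusted p 0.372). The muscle form Cox7a1 was dim, at 7.82 and 7.82 in M1 and 8.58 and 8.44 in I1, against 7.77 and 7.58 in BL185. Its I1 arrays were above those of both other lines, with 0.83 ± 0.17 in I1 minus BL185 and an adjusted p of 0.155 by limma. Within the VIIa family, Cox7a2l was thus lower than BL185 on every selected-line array and Cox7a2 higher.

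Subunits IV, VIa and VIb were compared in the same way. Cox4i1, the general form of subunit IV, read 13.76 and 14.12 in M1 and 13.93 and 14.10 in I1, against 14.06 and 14.00 in BL185. Cox4i2, known from lung and low oxygen, read 7.95 and 8.10 in M1 and 8.03 and 8.03 in I1, against 7.84 and 8.09 in BL185, near the array medians. Neither gene separated the lines. Cox6a1, the general form of subunit VIa, read 14.55 and 14.83 in M1 and 14.78 and 14.85 in I1, against 14.83 and 14.76 in BL185. The muscle form Cox6a2 read 9.24 and 8.39 in M1 and 8.85 and 8.87 in I1, against 8.89 and 8.94 in BL185. Both overlapped or nearly touched the parent's readings. Cox6b1, the general form of subunit VIb, read 13.97 and 14.30 in M1 and 14.29 and 14.40 in I1, against 13.87 and 13.73 in BL185. The testis form Cox6b2 was dim, at 8.43 and 7.22 in M1 and 7.61 and 7.54 in I1, against 7.20 and 7.18 in BL185. For Cox6b1 the difference was 0.33 ± 0.20 in M1 and 0.54 ± 0.20 in I1, with adjusted p-values of 0.434 and 0.380 by limma.

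Of the subunit VIII genes, the muscle form Cox8b gave the largest positive difference of the complex. Cox8b read 9.56 and 8.10 in M1 and 8.80 and 8.67 in I1, against 7.80 and 7.91 in BL185. Every selected-line array was higher, but M1 replicate 1 decided the M1 value, which was 0.98 ± 0.48 (adjusted p 0.400 by limma) with it and 0.25 without it. In I1 the difference was 0.88 ± 0.48, with an adjusted p of 0.589. Cox8a, the general form, read 13.72 and 13.96 in M1 and 13.53 and 13.54 in I1, against 13.69 and 13.53 in BL185. Cox8c, known from testis, read 10.62 and 10.35 in M1 and 10.21 and 10.38 in I1, against 10.05 and 10.18 in BL185. A dimmer Cox8c probe set gave the opposite sign, -0.20 in M1 and -0.24 in I1.

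Ndufa4 read 11.99 and 12.38 in M1 and 12.49 and 12.21 in I1, against 12.15 and 11.75 in BL185. Ndufa4l2, its paralogue known to be induced by hypoxia, was dim, at 8.72 and 8.16 in M1 and 8.49 and 8.60 in I1, against 8.16 and 8.30 in BL185. Both were higher in I1 on each array and overlapped in M1. The bright general subunits Cox5a, Cox5b and Cox6c differed by -0.09, 0.32 and 0.13 in M1 and by 0.05, 0.40 and 0.26 in I1. Cox7c and Cox7b2 were dim, at 6.27 to 7.70 over all arrays. Cox7c differed by -0.36 in M1, where the arrays overlapped BL185. In I1 it differed by -0.52, with both arrays below BL185, which was the lowest I1 value of complex IV.

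Complex V, the ATP synthase, had medians of 0.03 in M1 and 0.22 in I1, and relative to like signal 16 of its 17 members lay above in M1 and 14 in I1. Atp5e, the epsilon subunit of the central stalk, had the largest positive change of the complex in I1. It read 11.96 and 12.49 in M1 and 12.68 and 12.54 in I1, against 11.90 and 11.56 in BL185. All M1 and I1 readings exceeded those of BL185, with a difference of 0.49 ± 0.25 in M1 (adjusted p 0.411 by limma) and 0.88 ± 0.25 in I1 (adjusted p 0.261). Without M1 replicate 1 the M1 values were 0.76 for Atp5e and 0.89 for Atp5mpl, a small proteolipid of the membrane part. Atp5mpl read 12.10 and 12.71 in M1 and 12.46 and 12.70 in I1, against 11.76 and 11.88 in BL185. Its difference was 0.59 ± 0.26 in M1 and 0.76 ± 0.26 in I1, with adjusted p-values of 0.369 and 0.353 by limma. The membrane subunits Atp5k (e), Atp5l (g) and Atp5j2 (f) differed by 0.55, 0.51 and 0.46 in M1 and by 0.71, 0.69 and 0.70 in I1, and none of their arrays overlapped BL185.

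Besides Atp5e, the subunits of the catalytic head and its central stalk were nearer to the parent. Atp5a1 and Atp5b, the alpha and beta subunits that form ATP, differed by 0.19 and -0.12 in M1 and by 0.22 and -0.13 in I1. Atp5c1 and Atp5d, the gamma and delta subunits, differed by 0.02 each in M1 and by 0.02 and 0.11 in I1. Subunits of the outer stalk, Atp5pb, Atp5h, Atp5j and Atp5o, differed by -0.12 to -0.02 in M1 and by -0.09 to 0.31 in I1. Atp5md, another small membrane subunit, differed by 0.28 in M1 and 0.41 in I1.

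Atp5g1, Atp5g2 and Atp5g3 encode the same mature c subunit of the rotor ring with different import sequences. Atp5g2 read 12.69 and 13.24 in M1 and 12.96 and 13.11 in I1, against 13.34 and 13.27 in BL185, so that every selected-line array was below the parent. Its difference was -0.34 ± 0.24 in M1 and -0.27 ± 0.24 in I1, with adjusted p-values of 0.457 and 0.708 by limma, and without M1 replicate 1 the M1 value was -0.07. Atp5g3 lay on the other side of the parent on every array, at 14.26 and 14.60 in M1 and 14.38 and 14.52 in I1, against 14.20 and 14.22 in BL185. Atp5g1 read 12.25 and 12.75 in M1 and 12.68 and 12.63 in I1, against 12.55 and 12.39 in BL185. The differences of the 3 genes were 0.34 or less in size and did not pass the test.

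Between the selected lines, the members were a little higher in I1 than in M1, and this too followed M1 replicate 1. The median of I1 minus M1 was 0.16 over the members, beside -0.00 over all genes and 0.18 at like signal, and without M1 replicate 1 it was -0.04. Without that array 4 members were called higher and 2 lower, where 7.20% and 13.4% of all genes were, and without M1 replicate 2 in its place 43 were higher and 4 lower, where 36.1% and 20.9% of all genes were. By limma 0 of 82 members and 0% of all genes were called, and at an unadjusted p under 0.05 there were 2 members (2.44%), where 2.25% of all genes passed. These 2 were Cox7a1, at 0.69 ± 0.17, and Ndufv3, an accessory subunit of complex I, at 0.57 ± 0.18. Ndufv3 read 13.36 and 13.46 in I1, against 12.70 and 12.97 in M1. Both I1 arrays were above both M1 arrays for 16 members (19.5%), where 8.13% of all genes were so, and below for Cox7b2 and Cox8a (2.44%), where 7.96% of all genes were so. Most members are bright, and among other genes with a mean of at least 11 these shares were 13.8% and 2.12%, nearer to those of the members.

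Other probe sets of the same genes gave a check on the choice of 1 probe set per gene. Of the 82 members 49 had several, and 41 had another with a mean of at least 9. All the other probe sets had the sign of the one used for 31 of the 41 members in M1 minus BL185, 27 in I1 minus BL185 and 35 in I1 minus M1. Of the 87 other probe sets of members, 0 were called by limma in any comparison. At an unadjusted p under 0.05, 6 of them were higher (6.90%) and 8 lower (9.20%) in M1, beside 3.92% and 11.5% of all genes, and 13 higher (14.9%) and 4 lower (4.60%) in I1, beside 4.18% and 7.47%. For I1 minus M1 the count was 0. Some probe sets of members may also detect near-identical pseudogene copies, of which respiratory chain genes have many.

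The genes that build and serve the chain were set beside the subunits. These lists were 15 assembly factors of complex I, 29 of complexes II to V, 17 genes of electron carriers and coenzyme Q synthesis, 18 of the citric acid cycle and pyruvate dehydrogenase, 22 of mitochondrial biogenesis and transcription, 26 of protein import, 76 mitochondrial ribosomal proteins and 10 uncoupling proteins and carriers. None of these 213 genes was called by limma in any comparison. At an unadjusted p under 0.05, 9 were higher (4.23%) and 22 lower (10.3%) in M1, beside 3.92% and 11.5% of all genes, and 13 higher (6.10%) and 17 lower (7.98%) in I1, beside 4.18% and 7.47%. For I1 minus M1 the count was 0. Medians in M1 minus BL185 were -0.48 and -0.47 for the assembly lists, -0.32 for carriers, -0.29 for the citric acid cycle, -0.51 for biogenesis, -0.33 for import, -0.13 for ribosomal proteins and 0.06 for uncoupling and carriers. In I1 minus BL185 they were -0.30 and -0.10, -0.04, -0.17, -0.40, -0.22, -0.03 and 0.06 in the same order. The subunits had 0.01 and 0.18, but the lists differ in signal level. Relative to genes of like signal, an alternative added after the data were seen, the lists had medians of -0.12, 0.10, 0.05, 0.04, -0.38, 0.03, 0.25 and 0.13 in M1, beside 0.20 for the subunits. In I1 they had -0.15, 0.14, 0.15, 0.02, -0.20, -0.13, 0.13 and 0.07, beside 0.24 for the subunits. Without M1 replicate 1 the M1 medians of the 8 lists were -0.13 to 0.20, and the subunits had 0.23.

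Single assembly factors had larger changes than any subunit did by the probe set used. Sco1, which delivers copper to complex IV, read 6.91 and 8.20 in M1 and 7.42 and 7.55 in I1, against 9.46 and 9.18 in BL185. Pet100, needed to build complex IV, read 10.56 and 11.21 in M1 and 11.49 and 11.20 in I1, against 9.68 and 9.45 in BL185, and Cox20, a further complex IV factor, gave 1.16 in M1 and 1.67 in I1. The readings of both selected lines were on 1 side of BL185 for all 3, and factors for the same complex lay in opposite directions. Of the transcription factors named above with the promoters, Nrf1 differed by -0.11 in M1 and 0.25 in I1, Gabpa by -1.02 and -0.44, and Yy1 by -0.66 and -0.30. Tfam, which packages and transcribes mitochondrial DNA, differed by -0.88 and -0.45. None of these factors was called by limma. The M1 median of the biogenesis and transcription list, which holds them, was -0.51 with all arrays and -0.13 without M1 replicate 1.

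**Figure D5:**
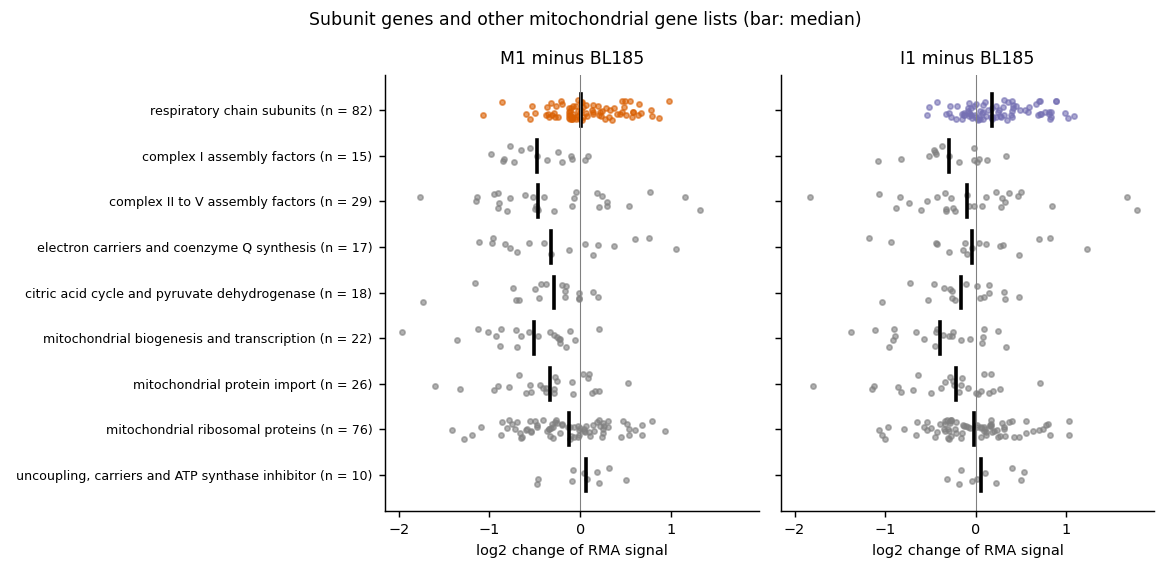
Log2 change of RMA signal (x axis) is shown for the subunit genes (coloured, top row) and 8 other mitochondrial gene lists (grey rows), in M1 minus BL185 (left) and I1 minus BL185 (right). Each point is a gene and each bar a median. The subunit bars stand at 0.01 and 0.18, and the lowest bar of the grey rows is that of biogenesis and transcription, at -0.51 and -0.40.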

How the data were processed

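RNA of 3 lines was hybridised to 6 Affymetrix arrays after 3′ IVT labelling, per the labels' protocols. The values the authors deposited are log2 signals of probe sets from RMA in the affy package, per the submitters' processing notes. Versions, normalization and chip definition are not stated in the sources used. Of 45101 probe sets, the 34945 that name 1 gene were kept without controls, and each gene was represented by its brightest probe set (18193 genes). All 82 members were matched to a RefSeq gene table of GRCm38.p6 and 0 symbols changed. No detection calls were used, and the number of arrays limits the precision.

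All 6 arrays entered 1 limma model (version 3.58.1, R 4.3.3) with the line means as coefficients, 3 residual and 2.27 prior degrees of freedom. The selected lines were set against BL185, and I1 against M1, with moderated statistics (eBayes) and Benjamini-Hochberg adjustment over all genes of a comparison at 0.05. The SEs given are from this model, whose pooled spread comes mostly from M1. The fit was tested on simulated data. Other steps ran in Python 3.11.15. Members, lists and tests were chosen with earlier results of these data known. Members named were, per complex, those with the largest positive and negative change (higher line mean at least 8). Isoform sets, the Sdh genes and core complex I subunits were also named, 33 members in all. Other members are given by counts, ranges or differences, but readings are also given for Uqcr11 and Ndufv3, both picked by their values.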

Additional observations from a re-analysis of the deposited data

How the results depend on the processing

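The number of genes called depended strongly on processing. For M1 minus BL185 (160) it was 241 with median centring, 1831 with cyclic loess, 1176 with quantile normalization, 338 with the probe sets of each gene averaged and 0 with only the 2 lines' arrays. For I1 minus BL185 (93) it was 1544 with loess, 981 with quantile normalization and 8481 with the 2 lines' arrays alone. For I1 minus M1 (0) it was 51, 6 and, with a mean of at least 8, 1. With the replicate block, which shares only a number between samples, 38, 1 and 0 genes and 0 members were called in the 3 comparisons. Crossed replicate numbers, added after the data were seen, gave 76, 0 and 0 genes. Members called were 11 with loess (9 higher and 2 lower, background 4.66% and 5.41%) and 6 with quantile normalization in M1, and 7, 11 and, with the 2 lines' arrays, 36 in I1.

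Leaving out each array in turn gave 0 to 12879, 0 to 8481 and 0 to 10365 genes called in M1, I1 and I1 minus M1, 0 to 40, 0 to 36 and 0 to 47 members, and member medians of -0.24 to 0.23, 0.12 to 0.24 and -0.04 to 0.37. In M1 the medians of complexes I to V were -0.34 to 0.26, -0.45 to 0.25, -0.24 to 0.17, 0.09 to 0.16 and -0.045 to 0.34. In I1 they were 0.19 to 0.32, -0.02 to 0.06, -0.088 to 0.12, 0.10 to 0.26 and 0.17 to 0.31. Every call among the members outside loess, quantile normalization and the 2-line fit came without an M1 array.

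In M1 the medians with loess were 0.27 (complex I), 0.21 (III) and 0.38 (V), with quantile normalization 0.24 (I) and 0.35 (V), and relative to like signal 0.23 (I), 0.17 (III) and 0.35 (V). In I1 they were 0.35 (I), 0.16 (II) and 0.13 (III) with loess, and 0.36 (I), 0.17 (II), 0.12 (III), 0.31 (V) and 0.30 (all members) with quantile normalization. Averaging the probe sets of each gene gave 0.16 (I) and -0.033 (III), and like signal 0.15 (II) and 0.10 (III). The cause of these shifts was not tested. Of the 66 changes of named members in M1 and I1, 40 kept their sign under every setting run. Some settings, such as the eBayes options, the 2-line fit and the replicate block, cannot alter a fitted change. Some named members were also chosen for having the largest changes, which makes a kept sign more likely. Dim probe sets and the 2 arrays per line limit what could be detected.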
